A study of Mus musculus with 12 samples.

Results

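Livers whose hepatocytes were targeted for deletion of Nr5a2 were compared between mice on a high-fat diet (HFD) and mice on a standard diet (SD). The libraries were chosen by their titles, which gave 2 HFD knockout libraries and 3 SD knockout libraries, 5 of the 12 libraries of the series. HFD knockouts carried floxed Nr5a2 alleles, had received Cre recombinase by an AAV8 vector and were fed the high-fat diet D12492 for 6 weeks. SD knockouts carried the same alleles and vector and were fed a standard diet. The labels give all 5 libraries as liver of male mice of 14 weeks on the mixed background 129SvEV-C57BL/6. The 4 HFD control and 3 SD control libraries carried the floxed alleles with no Cre, per the labels, and per the series' design text received AAV8-eGFP. They are used here only to set the diet change of control livers beside that of knockout livers. AAV8 reaches hepatocytes above all, so other liver cells are expected to keep the gene, and the sources used here give neither the promoter that drives Cre nor the exons that are deleted.

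Nr5a2 encodes LRH-1, a nuclear receptor that binds phospholipids and controls bile acid, cholesterol, phospholipid and glucose genes in hepatocytes. High-fat feeding delivers fatty acids to the liver, where they are taken up, activated, oxidized, built into triglyceride, stored in lipid droplets or exported on lipoproteins. Insulin and dietary sugar drive the lipogenic transcription factors SREBP-1c and ChREBP, while fatty acids activate PPARα.

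Nr5a2 itself had 69.1 and 84.5 CPM (TMM-normalized counts scaled to a common library size) in HFD knockouts, against 95.3, 100.1 and 94.7 CPM in SD knockouts. Both HFD values lay below all SD values, and the log2 fold change of -0.33 (SE 0.12) did not pass (adjusted p = 0.0610, edgeR's quasi-likelihood test). The count covers the whole gene, and SD controls had 74.8 to 85.8 CPM, so it does not check the deletion. Nr0b2, which encodes the repressor SHP and is an established LRH-1 target, had 0 and 0.335 CPM in HFD knockouts and 0 CPM in each SD knockout, against 6.26 to 13.3 CPM in HFD controls and 10.5 to 15.3 CPM in SD controls. Cyp8b1, the sterol 12α-hydroxylase and a further LRH-1 target, had 1.79 and 6.81 CPM in HFD knockouts and 0.697 to 4.00 CPM in SD knockouts, against 62.4 to 102.1 CPM in HFD controls and 17.1 to 47.6 CPM in SD controls. For both targets the knockout libraries lay below all control libraries on either diet.

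The libraries of the diets differed in more than diet. HFD knockout libraries held 7463792 and 8865421 counts and SD knockout libraries 2371167 to 3030139, and HFD and SD controls were split in the same way. The first principal component of the 5 knockout libraries, which separated the diets, held 72.8% of the variance. Rn45s, the ribosomal RNA precursor, took 1.143% and 1.30% of counts in HFD knockouts, against 0.291% to 0.460% in SD knockouts. Genes of ribosomal proteins took 0.675% and 0.716% in HFD knockouts, against 0.138% to 0.157% in SD knockouts. Albumin took 10.02% and 13.7% in HFD knockouts and 8.98% to 13.2% in SD knockouts, with overlap. Diet cannot be told apart from how and when these libraries were made, sequenced and counted, and every difference below is subject to that. Part of the difference followed genes with near-identical copies elsewhere in the genome, so copies are named with the genes below. For many genes the diet change in controls is given too. Controls share no library with the knockouts, but their diets were split in the same way and they entered the same fit.

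Of 12015 genes tested, 1792 were higher in HFD than in SD knockouts, which is 14.9%, and 1404 were lower, which is 11.7% (adjusted p under 0.05, edgeR's quasi-likelihood test). At least 2-fold, 1071 genes (8.91%) were higher and 260 (2.16%) were lower. The median log2 fold change over all genes was 0.03. The counts of list members below are to be read beside the 14.9% higher and 11.7% lower over all genes. For acute-phase, bile acid transport and lipoprotein genes the share that rose was no higher than that. Values of the 2 HFD and 3 SD knockouts did not overlap for 52.7% of the genes tested. Higher genes made up 56.1% of the calls over all genes and 45.7% among the 10152 genes with no copy found, of which 10.4% were higher and 12.4% lower. Without HFD knockout replicate 1, 1978 genes passed in place of 3196, and 1885 of them were among the 3196. In controls, 16.5% of the genes were higher and 13.6% lower on HFD, and 2280 genes passed in both genotypes in the same direction with 0 in opposite directions. Those 2280 are 71.3% of the knockout calls and 62.9% of the control calls. In bulk liver, fewer cells of a type and less RNA per cell cannot be told apart.

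Of 22 glucose genes tested, 5 rose and 2 fell, with a median of -0.13, or 0.028 without SD knockout replicate 1. Pfkl, the liver phosphofructokinase subunit, had 11.1 and 11.7 CPM in HFD knockouts, against 3.00, 2.40 and 2.44 CPM in SD knockouts. Khk, ketohexokinase, the entry enzyme of fructose metabolism, had 290 and 278 CPM in HFD knockouts, against 94.99, 120.1 and 122.6 CPM in SD knockouts. Both genes rose without overlap, by 2.11 (SE 0.27) and 1.34 (SE 0.13) on the log2 scale, with adjusted p = 3.75e-05 and 1.21e-06. Pck1, which encodes the gluconeogenic enzyme PEPCK, ran the other way, with 2041 and 1836 CPM in HFD knockouts, against 5414, 3638 and 3618 CPM in SD knockouts. It fell by 1.12 (SE 0.22, adjusted p = 0.00121). Slc2a2, the hepatocyte glucose transporter GLUT2, had 471 and 441 CPM in HFD knockouts, against 766, 777 and 751 CPM in SD knockouts, and fell by 0.75 (SE 0.13, adjusted p = 0.000449). Pfkfb3, which makes the activator of phosphofructokinase and is not on that list, had 12.4 and 17.6 CPM in HFD knockouts, against 78.3, 58.8 and 77.0 CPM in SD knockouts, and fell by 2.24 (SE 0.32, adjusted p = 8.10e-05). In controls the log2 fold changes were 2.17 for Pfkl, 1.48 for Khk, -0.48 for Pck1 and -0.70 for Slc2a2.

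**Figure D1:**
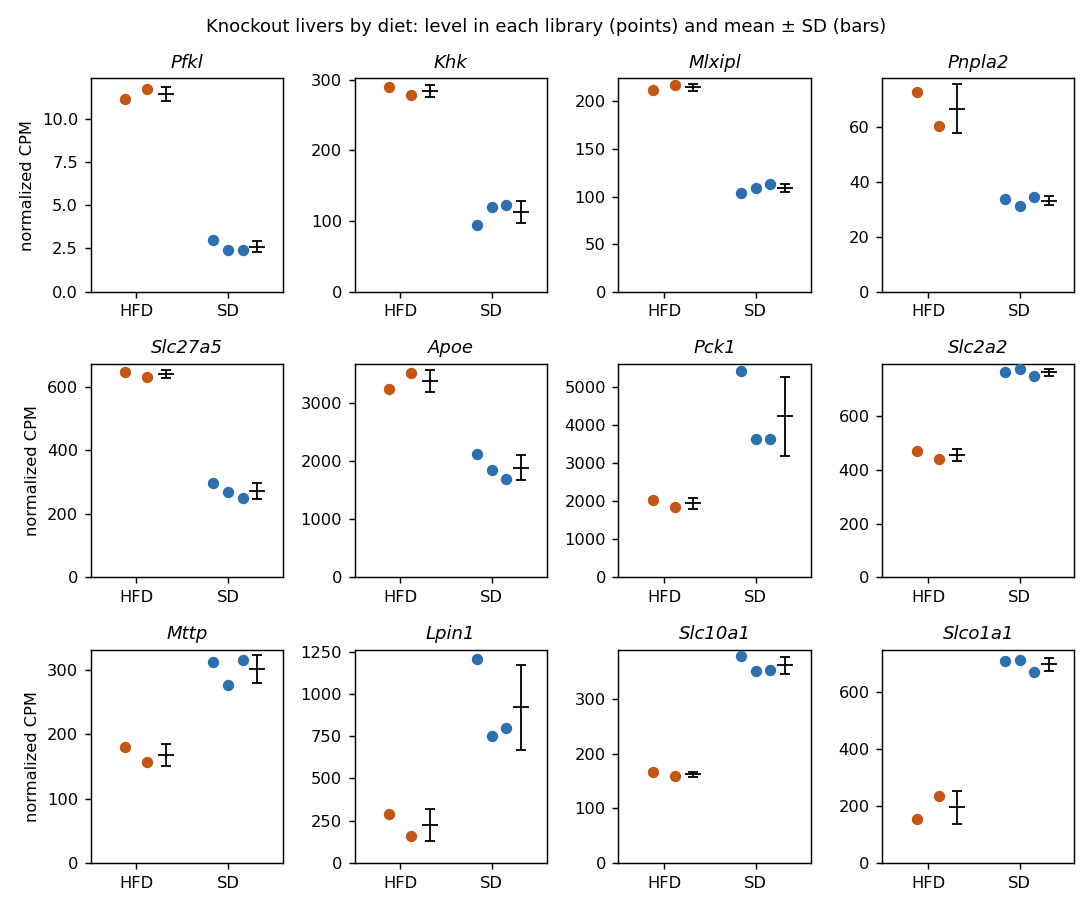
Normalized CPM of 12 metabolic genes with no copy found in the HFD knockout libraries (orange points, n = 2) and SD knockout libraries (blue points, n = 3), each with the group mean ± SD in black and its own axis from 0. Pfkl, Khk, Mlxipl, Pnpla2, Slc27a5 and Apoe lie higher and Pck1, Slc2a2, Mttp, Lpin1, Slc10a1 and Slco1a1 lie lower in every HFD library than in any SD library.

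Among lipogenic genes, the transcription factors rose more evenly than the enzymes. Mlxipl, which encodes ChREBP, had 212 and 217 CPM in HFD knockouts, against 104.0, 109.3 and 112.9 CPM in SD knockouts. Srebf1, which encodes SREBP-1, had 112.7 and 94.4 CPM in HFD knockouts, against 50.3, 65.2 and 63.4 CPM in SD knockouts. The groups did not overlap for either gene, and the log2 fold changes were 0.98 (SE 0.13, adjusted p = 4.22e-05) and 0.80 (SE 0.18, adjusted p = 0.00447). Acaca, acetyl-CoA carboxylase 1, for which a pseudogene copy was found, had 149.0 and 86.0 CPM in HFD knockouts, against 27.7, 30.8 and 30.7 CPM in SD knockouts. Scd1, stearoyl-CoA desaturase 1, named after its values were seen and with other near-identical genes, had 9864 and 1384 CPM in HFD knockouts, against 1216, 359 and 178 CPM in SD knockouts. Its first HFD library lay far above the other, which was close to the highest SD library. Fasn, fatty acid synthase, had 164 and 60.4 CPM in HFD knockouts and 49.0, 53.2 and 80.8 CPM in SD knockouts, with overlap, and did not pass (log2 fold change 0.88, adjusted p = 0.144); it too was named after its values were seen. Among lipogenic genes tested, 9 had no copy found, and of these 4 rose and 0 fell (median 0.39 in knockouts). Of all 14 lipogenic genes tested, 6 rose and 0 fell, with a median of 0.60 in knockouts and 0.49 in controls. Without HFD knockout replicate 1, 3 of them rose and the median was 0.32. In controls Mlxipl changed by 0.84, and Srebf1 by 0.13, which did not pass (adjusted p = 0.561). Acss2, the acetyl-CoA synthetase that feeds lipogenesis, rose by 1.57 with both HFD knockouts but by 0.69 without replicate 1 (adjusted p = 0.195).

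Lipid droplet and fatty acid uptake genes rose in part. Pnpla2, which encodes adipose triglyceride lipase, had 72.7 and 60.1 CPM in HFD knockouts, against 33.7, 31.2 and 34.5 CPM in SD knockouts (log2 fold change 1.00, SE 0.14, adjusted p = 8.83e-05). Plin2, the main coat protein of hepatic lipid droplets, for which 1 pseudogene copy was found, had 411 and 294 CPM in HFD knockouts, against 120.0, 113.7 and 90.9 CPM in SD knockouts (1.70, SE 0.23, adjusted p = 5.78e-05). Neither gene overlapped between the diets. Slc27a5, a bile acid and very-long-chain acyl-CoA ligase, had 649 and 631 CPM in HFD knockouts, against 298, 270 and 250 CPM in SD knockouts. Slc27a1, a fatty acid transport protein, had 23.1 and 16.5 CPM in HFD knockouts, against 6.00, 6.00 and 4.18 CPM in SD knockouts. These were the 2 members of the uptake list whose call held without HFD knockout replicate 1, with log2 fold changes of 1.23 (SE 0.135, adjusted p = 5.87e-06) and 1.87 (SE 0.345, adjusted p = 0.000909). Cd36, the fatty acid translocase, had 177 and 101.4 CPM in HFD knockouts, against 76.3, 41.6 and 39.7 CPM in SD knockouts, and its log2 fold change of 1.40 became 0.96 without replicate 1 (adjusted p = 0.0944). G0s2, the inhibitor of adipose triglyceride lipase, changed by 1.52 and by 1.22 without that library (adjusted p = 0.0587), and Acsl1, a long-chain acyl-CoA synthetase, by 0.80 and 0.52 (adjusted p = 0.0670). Of 16 droplet genes 6 rose and 0 fell (median 0.65), and of 16 uptake genes 5 rose and 0 fell (median 0.49). Without HFD knockout replicate 1, 2 of each list rose and the uptake median was 0.19. The medians in controls were 0.54 and 0.06, and control changes were 0.93 for Pnpla2, 1.19 for Plin2, 0.69 for Slc27a5, 1.89 for Slc27a1 and 1.32 for Cd36.

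Triglyceride assembly and export genes were split. Lpin1, the phosphatidate phosphatase lipin-1, had 291 and 159 CPM in HFD knockouts, against 1209, 752 and 801 CPM in SD knockouts. Mogat1, a monoacylglycerol acyltransferase, had 5.28 and 2.34 CPM in HFD knockouts, against 0.333, 0.801 and 0 CPM in SD knockouts. Lpin1 fell by 2.03 (SE 0.42, adjusted p = 0.00218) and Mogat1, at low counts, rose by 3.31 (SE 0.81, adjusted p = 0.00684). Mttp, which loads triglyceride onto apolipoprotein B, had 180 and 156 CPM in HFD knockouts, against 312, 277 and 315 CPM in SD knockouts. Apob, the structural protein of very-low-density lipoprotein, had 19680 and 22497 CPM in HFD knockouts, against 36600, 39366 and 37031 CPM in SD knockouts. Both export genes fell in each HFD library, by 0.84 (SE 0.11, adjusted p = 3.95e-05) and 0.84 (SE 0.13, adjusted p = 0.000243). Apoe, the remnant ligand, ran against them, with 3251 and 3524 CPM in HFD knockouts, against 2124, 1848 and 1694 CPM in SD knockouts (0.84, SE 0.14, adjusted p = 0.000308). Of 11 triglyceride genes 2 rose and 3 fell, and of 17 lipoprotein genes 2 rose and 4 fell; 2 lipoprotein genes passed without HFD knockout replicate 1. Without HFD control replicate 2 or HFD control replicate 3, and also with only the groups compared or after thinning, the 3 falls of the triglyceride list passed and 0 rises. Mogat1 was below the count filter in those fits and without HFD knockout replicate 1, so it was not tested there. The other rise of the triglyceride list also lost its call in the fits with 0 rises. Without SD knockout replicate 2 the change of Mogat1 was 4.31. Pltp, phospholipid transfer protein, had 32.7 and 10.5 CPM in HFD knockouts, against 4.33, 2.001 and 3.48 CPM in SD knockouts, and its log2 fold change of 2.67 became 1.66 without replicate 1 (adjusted p = 0.1496). Control livers changed by 0.59 for Mogat1, 1.92 for Pltp, -0.59 for Lpin1, -0.45 for Mttp, -0.56 for Apob and 0.55 for Apoe. Of these, Mogat1 and Lpin1 did not pass edgeR's quasi-likelihood test in controls (adjusted p = 0.621 and 0.194).

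Fatty acid oxidation genes rested on 1 HFD library for most of their calls, and cholesterol synthesis genes rose in larger number. Of 31 fatty acid oxidation genes, 7 rose and 2 fell (median 0.30), and among the 22 with no copy found 4 rose and 1 fell. Without HFD knockout replicate 1, 1 rose and 2 fell over the whole list, with a median of 0.012. Hadhb, the mitochondrial trifunctional protein β subunit, for which 2 pseudogene copies were found, had 317 and 254 CPM in HFD knockouts, against 43.7, 39.6 and 35.2 CPM in SD knockouts. Acadm, medium-chain acyl-CoA dehydrogenase, with no copy found, had 434 and 368 CPM in HFD knockouts, against 308, 240 and 218 CPM in SD knockouts (log2 fold change 0.65, adjusted p = 0.00772). Its value was 0.54 without replicate 1 (adjusted p = 0.0764). Of 24 cholesterol synthesis genes, 10 rose and 1 fell (median 0.52 in knockouts and 0.49 in controls), and 4 rose and 1 fell without replicate 1. Among the 21 with no copy found 8 rose and 1 fell, and without SD knockout replicate 1 the median of the list was 0.25. Lss, lanosterol synthase, had 70.2 and 43.2 CPM in HFD knockouts, against 22.7, 27.6 and 30.7 CPM in SD knockouts (1.07, SE 0.20, adjusted p = 0.000855). Sc5d, a late sterol desaturase, had 468 and 308 CPM in HFD knockouts, against 172, 229 and 224 CPM in SD knockouts (0.90, SE 0.17, adjusted p = 0.00105). The groups did not overlap for Lss or for Sc5d, although the first HFD library was the higher of the pair each time. In controls Lss changed by 1.17 and Sc5d by 0.15, and Sc5d did not pass there (adjusted p = 0.450). Idi1 and Fdps, isoprenoid enzymes with 3 and 5 pseudogene copies, had the largest changes of that list, at 5.62 and 3.68, and changed by 5.75 and 3.31 in controls.

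Bile acid genes ran in both directions, and 2 carriers and 1 enzyme had large falls. Slc10a1, which encodes NTCP, the sodium-dependent bile acid uptake carrier, had 166 and 159 CPM in HFD knockouts, against 379, 352 and 353 CPM in SD knockouts. Slco1a1, the organic anion carrier OATP1A1, had 154 and 236 CPM in HFD knockouts, against 707, 712 and 670 CPM in SD knockouts. Cyp7b1, the oxysterol 7α-hydroxylase of the alternative pathway, had 40.7 and 99.7 CPM in HFD knockouts, against 222, 512 and 611 CPM in SD knockouts. All 3 genes were lower in both HFD libraries than in any SD library, by 1.15 (SE 0.22), 1.84 (SE 0.21) and 2.67 (SE 0.48) as decreases on the log2 scale, with adjusted p = 0.00134, 8.98e-06 and 0.000758. Slc10a2, the apical sodium-dependent carrier, had 51.6 and 41.6 CPM in HFD knockouts, against 18.3, 16.8 and 12.5 CPM in SD knockouts, and rose by 1.55 (SE 0.36, adjusted p = 0.00505). Cyp7a1, the rate-limiting enzyme of the classical pathway, named after its values were seen, had 1468 and 1399 CPM in HFD knockouts and 1507, 1435 and 1200 CPM in SD knockouts. Its groups overlapped, and it did not pass (0.05, SE 0.50, adjusted p = 0.952). Of 16 synthesis genes 5 rose and 3 fell, and 3 rose and 1 fell without HFD knockout replicate 1. Of 14 transport genes 2 rose and 3 fell, and 1 rose and 2 fell without SD knockout replicate 1. In controls Slc10a1 changed by -0.08, Slco1a1 by -0.86, Cyp7b1 by -1.10 and Slc10a2 by 1.51. Control livers had 435 to 923 CPM of Slc10a1 on HFD and 698 to 820 CPM on SD.

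Polyunsaturated fatty acid and phospholipid genes, many of them described as LRH-1 targets, leaned on the same HFD library. Fads1, the Δ5 desaturase, had 644 and 399.9 CPM in HFD knockouts, against 261, 366 and 275 CPM in SD knockouts (log2 fold change 0.80; 0.43 without HFD knockout replicate 1, adjusted p = 0.169). Lpcat3, which loads arachidonate into phosphatidylcholine, had 104.6 and 65.5 CPM in HFD knockouts, against 58.3, 62.8 and 59.9 CPM in SD knockouts (0.49; 0.13 without that library, adjusted p = 0.596). Its second HFD library lay just above the SD range. Of 9 polyunsaturated fatty acid genes 4 rose and 0 fell, and 1 rose without replicate 1. Of 15 LRH-1 targets 4 rose and 1 fell, and 1 rose and 1 fell without replicate 1, the fall being Slc10a1; without SD knockout replicate 1, or without SD knockout replicate 2, 2 rose and 1 fell. Of 12 acyl remodeling genes 1 rose, Lpcat3, and 1 fell, Pla2g12b, a secreted phospholipase relative, with 24.5 and 25.6 CPM in HFD knockouts, against 39.3, 34.8 and 41.4 CPM in SD knockouts. Without HFD knockout replicate 1, SD knockout replicate 1 or SD knockout replicate 3, 0 of them rose. One-carbon genes were steadier. Sardh, sarcosine dehydrogenase, had 305 and 297 CPM in HFD knockouts, against 118.7, 93.3 and 90.9 CPM in SD knockouts, and rose by 1.58 without overlap (SE 0.16, adjusted p = 2.57e-06; 1.00 in controls). Of 21 phosphatidylcholine and methyl genes 7 rose and 2 fell, and 4 rose and 1 fell among the 14 with no copy found.

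Most male-biased liver genes were lower in HFD knockouts, and their list had the lowest median of the 41 lists. These genes follow the pulsatile growth hormone pattern of males. Of 19 tested, 13 fell and 1 rose, with a median of -1.53 in knockouts and -0.39 in controls. Their summed level was not lower, at 16198 and 29780 CPM in HFD knockouts and 14270 to 19224 CPM in SD knockouts, with overlap. Hsd3b5, a male-specific steroid dehydrogenase with 3 near-identical genes, had 8.62 and 23.1 CPM in HFD knockouts, against 136, 288 and 307 CPM in SD knockouts (log2 fold change -3.92, SE 0.69, adjusted p = 0.000625). Cyp4a12b, a male-biased fatty acid hydroxylase with 1 near-identical gene, had 5.70 and 8.70 CPM in HFD knockouts, against 45.0, 82.1 and 82.2 CPM in SD knockouts (-3.25, SE 0.63, adjusted p = 0.00132). In each of these genes both HFD libraries lay far below the lowest SD library, and in controls the changes were -1.62 and -1.72. Among the 7 members with no copy found 4 fell and 0 rose, Cyp7b1 and Slco1a1 among them. Mup20, the major urinary protein darcin, was the member that rose, with 13521 and 24262 CPM in HFD knockouts, against 4243, 4741 and 6339 CPM in SD knockouts; it has copies and was named after its values were seen. The count was 7 falls and 1 rise without HFD knockout replicate 1 and 8 falls and 1 rise without SD knockout replicate 3. In edgeR's test of the difference between genotypes 11 of the 19 genes, and 911 of all 12015, reached an unadjusted p under 0.05. After adjustment 0 passed. Of the 19 genes 7 had no copy found, and genes with near-identical copies may not be independent.

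**Figure D2:**
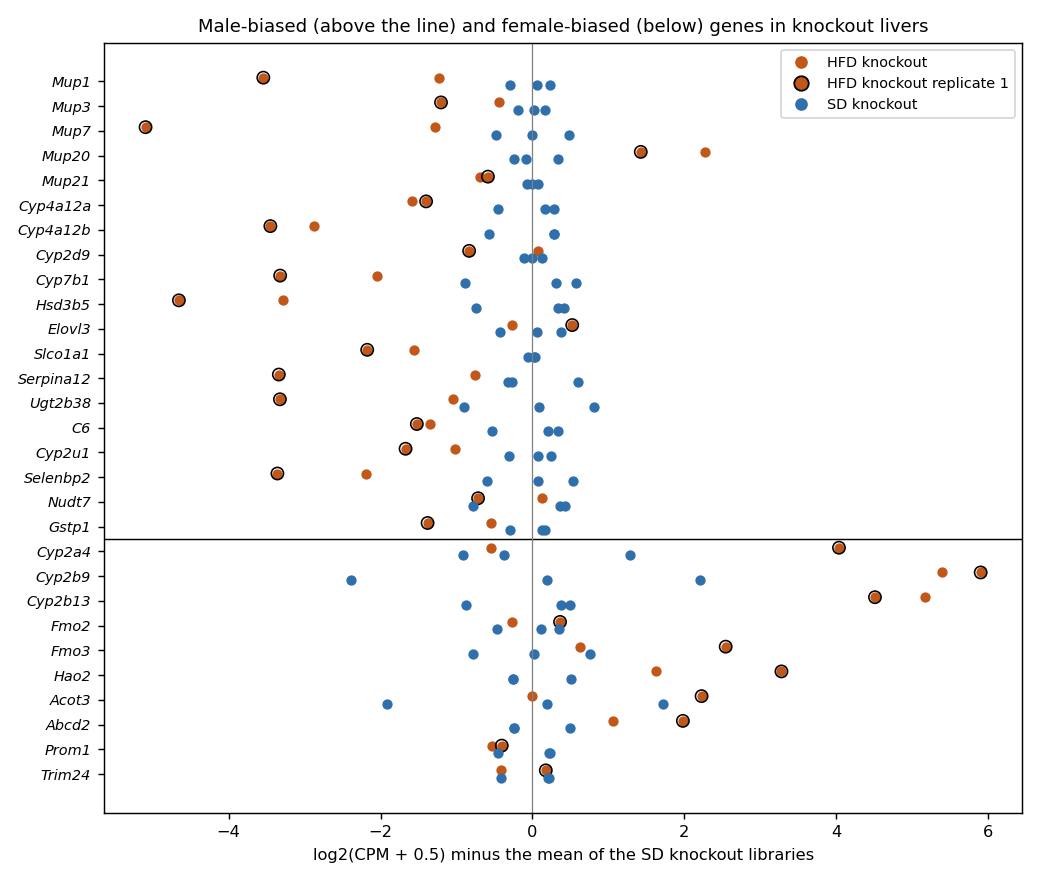
Levels of 19 male-biased genes (above the line) and 10 female-biased genes (below it) in each knockout library, as log2(CPM + 0.5) minus the mean of the SD knockout libraries; HFD libraries are orange with replicate 1 ringed, and SD libraries are blue. Most male-biased genes lie left of 0 in both HFD libraries, while Mup20, Cyp2b9 and Cyp2b13 lie right of every SD library.

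Female-biased genes rose in part, and the largest rises were of a pair of P450 genes. Cyp2b9 had 591 and 414 CPM in HFD knockouts, against 45.0, 10.8 and 1.39 CPM in SD knockouts. Cyp2b13 had 20.4 and 32.6 CPM in HFD knockouts, against 0, 0.801 and 0.697 CPM in SD knockouts. Both are CYP2B enzymes with a pseudogene copy each, they did not overlap between diets, and they rose by 4.69 (SE 1.08, adjusted p = 0.00452) and 5.73 (SE 1.30, adjusted p = 0.00411). The SD libraries were widely spread among themselves for Cyp2b9, and without SD knockout replicate 1 its log2 fold change was 6.45. Abcd2, a peroxisomal fatty acyl-CoA transporter with no copy found, rose by 1.56, and its value was 1.04 without HFD knockout replicate 1 (adjusted p = 0.0666). Of 10 female-biased genes tested 3 rose and 0 fell (median 1.76), 1 of them among the 6 with no copy found. Over all genes tested 14.9% rose. After thinning, also on the same genes, or with no count filter, 6 female-biased genes rose and 0 fell. Without HFD knockout replicate 1 the median was 0. The changes in controls were 4.20 for Cyp2b9, 4.03 for Cyp2b13 and 1.16 for Abcd2. Cyp2a4, a steroid hydroxylase with 1 near-identical gene, had 35.6 and 1.00 CPM in HFD knockouts and 0.667, 1.20 and 4.88 CPM in SD knockouts, so 1 HFD library stood apart from all the others.

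Interferon-response genes rose in part and calls of class II antigen presentation genes depended on single libraries of both diets. Psmb9, an immunoproteasome subunit, had 27.9 and 28.6 CPM in HFD knockouts, against 7.67, 12.4 and 6.27 CPM in SD knockouts. Ifi44, an interferon-induced protein, had 31.8 and 27.2 CPM in HFD knockouts, against 11.0, 7.20 and 11.8 CPM in SD knockouts. Both rose without overlap and with no copy found, by 1.70 (SE 0.275, adjusted p = 0.000284) and 1.54 (SE 0.22, adjusted p = 9.09e-05), and by 1.35 and 1.45 in controls. Of 20 interferon genes 7 rose and 1 fell (median 0.79 in knockouts and 0.34 in controls), and 3 rose without HFD knockout replicate 1. B2m, the class I light chain, was the member that fell, with 4128 and 4104 CPM in HFD knockouts, against 5993, 5476 and 5881 CPM in SD knockouts; its adjusted p was 0.00800, and 0.0585 without replicate 1. Cd74, the invariant chain of class II molecules, had 118.8 and 60.6 CPM in HFD knockouts, against 18.0, 37.2 and 12.5 CPM in SD knockouts. H2-Eb1, a class II β chain, had 14.6 and 6.70 CPM in HFD knockouts, against 3.00, 5.60 and 2.79 CPM in SD knockouts. Of 7 class II genes 4 rose and 0 fell (median 1.56 in knockouts and 0.00 in controls); 2 passed without SD knockout replicate 1, 1 without SD knockout replicate 3 and 0 without HFD knockout replicate 1, where the median was 0.88; 2 passed after thinning or with length and GC offsets. Without HFD knockout replicate 1 the log2 fold change of Cd74 was 1.46 in place of 2.01 (adjusted p = 0.0538) and that of H2-Eb1 0.86 in place of 1.49 (adjusted p = 0.325); their changes in controls were 1.31 and 0.29. Of 16 macrophage markers tested 1 rose, Clec4f, and without HFD knockout replicate 1 or 2 it did not pass (adjusted p = 0.0520 and 0.0571), while 3 markers passed without SD knockout replicate 2. Their summed level was 557 to 585 CPM in HFD knockouts and 521 to 580 CPM in SD knockouts. Among lymphocyte and neutrophil markers 5 of 16 listed were tested and 2 rose, or 1 without HFD knockout replicate 1, SD knockout replicate 3, HFD control replicate 3 or HFD control replicate 4, with a summed level of 48.9 and 52.1 CPM in HFD knockouts, against 22.7 to 28.4 CPM in SD knockouts. Among the 4 of these with no copy found 1 rose, with a median of 0.43, against 0.88 over all 5 tested. The part of these markers in the class II values was not tested.

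Class II genes share a promoter element known as the Y box, an inverted CCAAT box. The 2 class II genes whose upstream window held its common form CTGATTGG are shown, to set the element beside the genes that were counted together. Each line gives the 150 bases before the transcription start (RefSeq, GRCm38.p6), 5′ to 3′ on the gene's strand, with the element in capitals.
H2-Eb1 (chr17:34305717-34305866, + strand): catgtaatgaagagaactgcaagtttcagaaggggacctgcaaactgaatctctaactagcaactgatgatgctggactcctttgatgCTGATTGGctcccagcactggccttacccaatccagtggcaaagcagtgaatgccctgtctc
H2-Aa (chr17:34287824-34287973, - strand): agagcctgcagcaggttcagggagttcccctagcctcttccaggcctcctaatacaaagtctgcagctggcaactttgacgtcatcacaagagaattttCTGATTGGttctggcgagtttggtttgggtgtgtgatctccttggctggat
The element began 62 bases before the start in H2-Eb1 and 51 bases before it in H2-Aa. Searched on both strands in the 250 bases before the start, CTGATTGG was in 3.83% of 32851 windows and its core ATTGG in 33.8%. Of the 8 listed genes 5 were in the table, 2 with CTGATTGG and 4 with ATTGG. H2-Aa, which shares the form with H2-Eb1, had 39.9 and 15.8 CPM in HFD knockouts and 9.999, 20.01 and 8.71 CPM in SD knockouts, with overlap, and did not pass (log2 fold change 1.12, adjusted p = 0.146).

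Other groups moved in part, and the single genes Myc, Foxq1 and Gadd45g had large falls. Per1 and Per3, repressors of the circadian clock, rose by 0.86 (SE 0.16, adjusted p = 0.00128) and 0.77 (SE 0.13, adjusted p = 0.000566), and by 0.98 and 0.65 in controls. Per3 had 105.7 and 87.3 CPM in HFD knockouts, against 48.0, 63.2 and 58.9 CPM in SD knockouts. Of 17 clock genes 5 rose and 1 fell, and 3 rose without HFD knockout replicate 1; the labels used here give no time of day at collection. Myc, the growth-linked transcription factor, had 12.8 and 12.5 CPM in HFD knockouts, against 127, 155 and 57.5 CPM in SD knockouts (log2 fold change -3.16, SE 0.72, adjusted p = 0.00448). Gadd45g, a stress-response gene, had 1.53 and 11.0 CPM in HFD knockouts, against 48.0, 41.6 and 32.0 CPM in SD knockouts (-2.63, SE 0.55, adjusted p = 0.00248). Its HFD values differed more from each other than its SD values did, and without replicate 1 the change was -1.86, which still passed. Of 13 immediate-early genes 1 rose and 3 fell, and 0 rose and 2 fell without HFD knockout replicate 1, SD knockout replicate 1 or SD knockout replicate 3. In controls Myc changed by -1.45 and Gadd45g by -0.75, and neither passed (adjusted p = 0.0926 and 0.248). Foxq1, a forkhead factor, had 10.8 and 24.9 CPM in HFD knockouts, against 144, 165 and 139 CPM in SD knockouts (-3.04, SE 0.65, adjusted p = 0.00262). In controls Foxq1 changed by -1.22 and did not pass edgeR's quasi-likelihood test (adjusted p = 0.105). Dnajb9, an endoplasmic reticulum chaperone with 1 pseudogene copy, had 24.7 and 32.5 CPM in HFD knockouts, against 106, 97.3 and 109 CPM in SD knockouts, and changed by -1.86 in knockouts and -1.21 in controls. It was 1 of 2 falls among 17 genes of the endoplasmic reticulum stress list, with 0 rises, and the other fall, Dnajc3, an endoplasmic reticulum co-chaperone, did not pass without SD knockout replicate 1 or 3 or without HFD knockout replicate 1, where its change was -0.21 in place of -0.42 (adjusted p = 0.351). Crp and Hp, the acute-phase proteins C-reactive protein and haptoglobin, were 2 of 3 rises among 23 acute-phase genes, with 0 falls. That share of rises was no higher than the 14.9% over all genes. Without SD knockout replicate 1, 4 acute-phase genes rose and 1 fell. Crp had 1229 and 1267 CPM in HFD knockouts, against 749, 577 and 513 CPM in SD knockouts, and Hp had 724 and 739 CPM in HFD knockouts, against 225, 409 and 357 CPM in SD knockouts. In controls they changed by 0.56 and 1.61. Of 27 amino acid genes 6 rose and 0 fell, led by Gpt, alanine aminotransferase, with 112 and 138 CPM in HFD knockouts, against 56.0, 55.6 and 56.4 CPM in SD knockouts.

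Few markers of the tissue's cell types passed. Among 12 hepatocyte genes 2 rose and 1 fell, and their summed level was 158662 and 204301 CPM in HFD knockouts and 151629 to 204102 CPM in SD knockouts. Ttr, transthyretin, had 11559 and 10064 CPM in HFD knockouts, against 6842, 6020 and 6133 CPM in SD knockouts. Ttr rose by 0.77 (SE 0.13, adjusted p = 0.000545) and changed by 0.00 in controls. Of 12 pericentral markers 0 rose and 0 fell, and of 11 periportal markers Pck1 alone fell, with 2 falls without HFD control replicate 3. Of 14 stellate and matrix genes Lum alone fell, and of 13 endothelial genes Bmp2 alone fell; Bmp2 did not pass without HFD knockout replicate 1 (adjusted p = 0.0584), and 2 endothelial genes passed without HFD knockout replicate 2 or SD knockout replicate 1. Of 8 adipocyte markers 4 were tested, and 2 of them, Cfd and Car3, rose. Fabp4 changed by 0.96 (adjusted p = 0.110) and Adrb3 by -1.66 (adjusted p = 0.108), and neither passed edgeR's quasi-likelihood test. Cfd, adipsin, had 69.1 and 36.8 CPM in HFD knockouts, against 11.7, 2.80 and 0 CPM in SD knockouts (log2 fold change 3.40, SE 0.66, adjusted p = 0.00133; adjusted p = 0.0981 by DESeq2), and without SD knockout replicate 1 its change was 5.33. HFD controls had 0.343 to 3.09 CPM of Cfd and SD controls 0 to 0.402 CPM. Of 8 adipocyte markers 3, Adipoq, Lep and Retn, which encode adiponectin, leptin and resistin, were at 0 in all 5 knockout libraries. Summed, those markers were 1454 and 2521 CPM in HFD knockouts and 700.5 to 1149 CPM in SD knockouts, nearly all from Car3, carbonic anhydrase 3. Car3 changed by 1.13, and by 0.70 without HFD knockout replicate 1 (adjusted p = 0.169). Of 11 exocrine pancreas markers 8 were at 0 in all 5 knockout libraries, and so were 6 of 9 erythroid markers, all of them globin genes. Why the globin genes had 0 counts was not tested. Alas2, the 1 erythroid marker tested, had 42.0 to 55.6 CPM in HFD knockouts, against 26.8 to 31.0 CPM in SD knockouts. It rose by 0.76 (adjusted p = 0.0155), by 0.56 without HFD knockout replicate 1, and did not pass without SD knockout replicate 2 (adjusted p = 0.0514). What the adipocyte markers contribute to other differences was not tested.

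**Figure D3:**
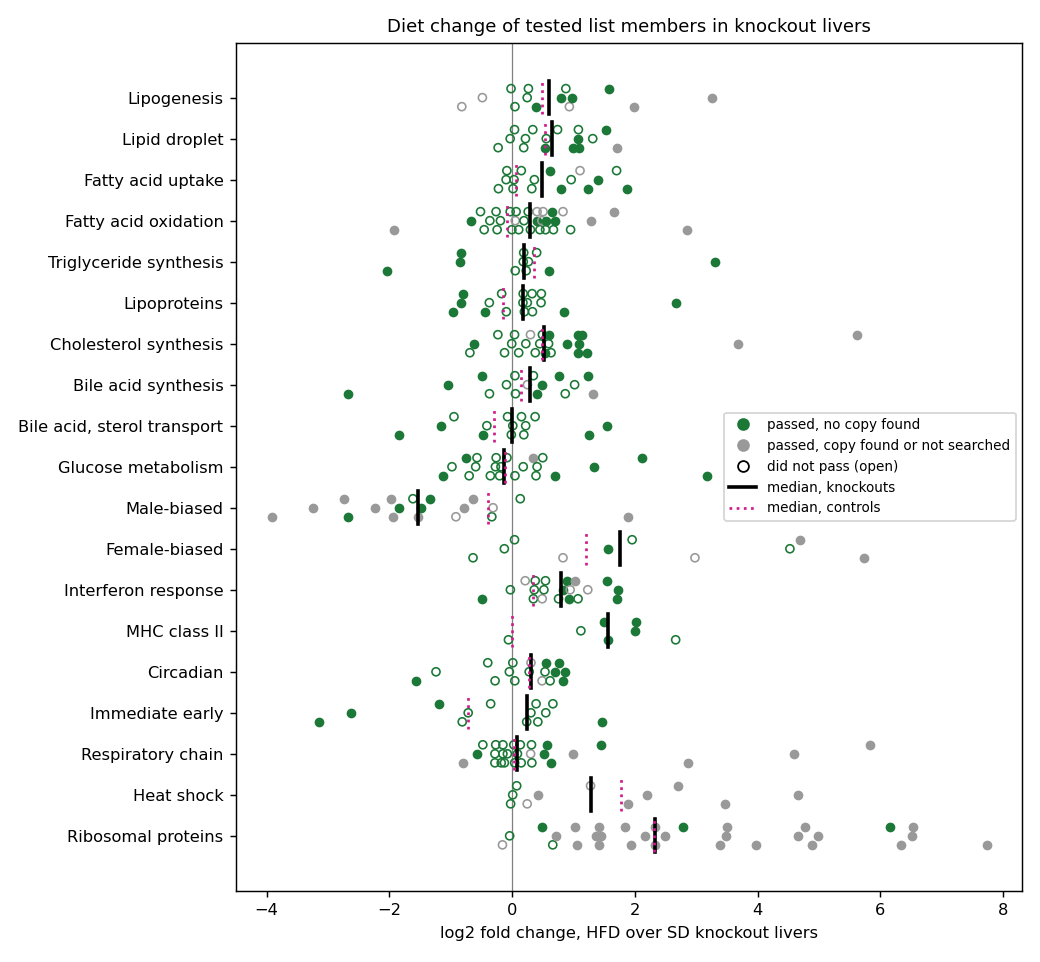
Log2 fold change, HFD over SD knockouts, of the tested members of 19 gene lists; filled points passed, green marks members with no copy found and grey those with a copy or not searched, solid bars are medians in knockouts and dotted bars medians in controls. The male-biased median lies at -1.53, the lipid droplet median at 0.65, and the ribosomal protein list, nearly all grey, at 2.33 in knockouts and 2.31 in controls.

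In the test of the difference between the diet changes of knockouts and controls 0 genes passed, 0.00% of 12015, by edgeR's quasi-likelihood test. The test set the HFD over SD change in knockouts against that in controls, 911 genes reached an unadjusted p under 0.05, and the smallest adjusted p was 0.202, for Apoa4. DESeq2's Wald test called 30 genes, 19 with a more positive change in knockouts and 11 with a more negative one. The 3 genes described next were picked from those 30 after their values were seen. Apoa4, an apolipoprotein of triglyceride-rich particles, had 106.6 and 89.6 CPM in HFD knockouts and 77.0, 76.9 and 105.5 CPM in SD knockouts, with overlap, against 126.6 to 248.3 CPM in HFD controls and 23.2 to 46.2 CPM in SD controls. Its log2 fold change was 0.18 in knockouts and 2.50 in controls. Inmt, an amine methyltransferase, had 499 and 417 CPM in HFD knockouts, against 176, 158 and 102.8 CPM in SD knockouts, and changed by 1.65 in knockouts and -0.05 in controls. Serpine2, a protease inhibitor, had 22.6 and 30.8 CPM in HFD knockouts, against 88.0, 77.7 and 80.8 CPM in SD knockouts, and changed by -1.62 in knockouts and 0.22 in controls. The adjusted p of Inmt and of Serpine2 was 0.291 in edgeR's test. Ttr and Slc10a1, described above, had differences of 0.77 (SE 0.18) and -1.07 (SE 0.28). In edgeR's test their unadjusted p was 0.000524 and 0.00184, and their adjusted p was 0.329 and 0.374. Ttr was among the 30 genes that DESeq2's Wald test called (adjusted p = 0.00209), and Slc10a1 was not. Across the genes with no copy found, the knockout and control changes had a Pearson r of 0.789, as a description over genes, which are not independent.

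**Figure D4:**
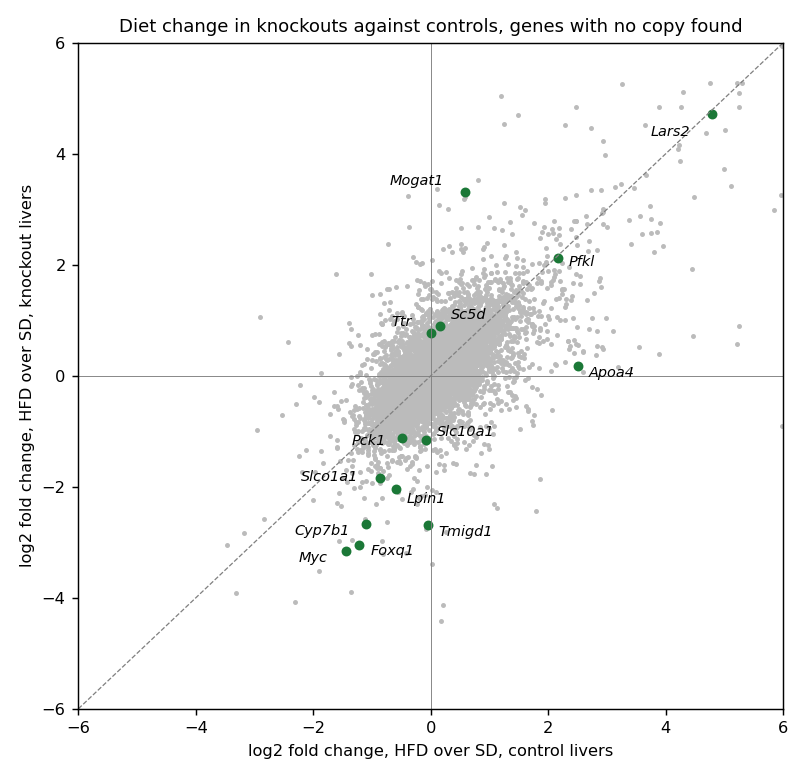
Diet change in knockout livers (vertical) against that in control livers (horizontal) as log2 fold changes, HFD over SD, for 10062 genes with no copy found; 90 further genes lie outside the axes, and the dashed line marks equal change. Pfkl and Lars2 lie high in both genotypes, Apoa4 lies near 0 in knockouts and at 2.50 in controls, and Slc10a1 lies at -1.15 in knockouts and near 0 in controls.

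Genes with near-identical copies gave the largest differences. A gene was counted as having a copy where its transcript matched that of another annotated gene over 200 or more bases with 90% identity or better. Gapdh, the glycolytic enzyme, with 152 pseudogene copies, named after its values were seen, had 493 and 553 CPM in HFD knockouts, against 1.33, 1.20 and 2.44 CPM in SD knockouts. Its change was 8.27 in knockouts and 9.08 in controls, so the groups were separated by far more than the spread in both genotypes. The sequence below is shown because a read that falls in it fits more than 1 place. It is the first 150 bases of the longest coding exon of Gapdh (chr6:125163287-125163436, - strand, GRCm38) and is identical, with 0 mismatches, to the processed pseudogene Gm10359 (chr5:105863530-105863679, - strand).
Gapdh and Gm10359: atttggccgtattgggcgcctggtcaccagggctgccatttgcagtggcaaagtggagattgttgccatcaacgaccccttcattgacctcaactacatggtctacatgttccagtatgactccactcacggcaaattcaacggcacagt
In all, 40 single-exon pseudogenes carried this stretch with at most 10% of the bases changed.

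The share of higher genes climbed with the number of pseudogene copies. It was 11.2% of 10525 genes with 0 copies, 32.2% of 888 with 1, 53.4% of 339 with 2 to 4 and 82.2% of 163 with 5 or more. The median log2 fold change of the last class was 2.78 in knockouts and 3.03 in controls. Genes with a pseudogene copy were 11.6% of those tested and 49.1% of those at least 4-fold higher. Ribosomal protein genes belong largely to this class: 28 of 31 rose and 0 fell, and 3 of the 5 with no copy found rose. Rpl10 had 439 and 438 CPM in HFD knockouts, against 1.00, 3.20 and 2.09 CPM in SD knockouts, and has 12 pseudogene copies. Of 11 heat shock genes 6 rose, and 0 of the 3 with no copy found. Of 27 respiratory chain genes 8 rose and 2 fell, and 4 rose and 1 fell among the 21 with no copy found. Among the 9 of 21 methyl and phosphatidylcholine genes that passed, Ahcy, with 2 pseudogene copies, and Bhmt, with 1, had log2 fold changes of 2.25 and 3.07 in knockouts and 2.21 and 2.76 in controls. How reads with several matching places were counted was not tested and is not given in the sources used here.

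**Figure D5:**
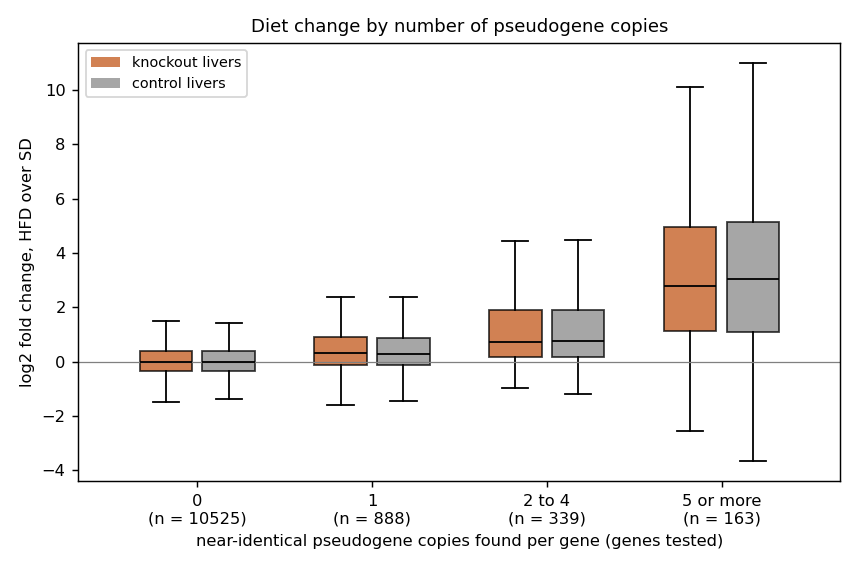
Log2 fold change, HFD over SD, of tested genes grouped by the number of near-identical pseudogene copies, for knockout livers (orange) and control livers (grey); boxes span the quartiles with the median as a line, and whiskers reach 1.5 times the box height. In knockouts the medians climb to 2.78 for genes with 5 or more copies, and in controls to 3.03.

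A further set of genes was nearly uncounted on 1 diet. With at most 3 counts over all SD knockouts and at least 5 CPM in HFD knockouts there were 74 genes, of which 56 met the same criterion in controls, 45 had a copy and 30 were predicted or clone-named. The reverse held for 5 genes, 4 of them also in controls. The 10 largest rises among named genes all came from this set. Zfp488, a zinc finger gene with 35 pseudogene copies, had 132 and 133 CPM in HFD knockouts and 0 in SD knockouts, at least 370-fold higher against 3 counts over the SD group. Dcdc2c and Slc7a14, with no copy found, had 33.7 to 36.1 and 14.6 to 18.4 CPM in HFD knockouts and 0 in SD knockouts, which is at least 97.0-fold and 46.6-fold higher. Lars2, the mitochondrial leucyl-tRNA synthetase, led the genes with no copy found that were counted on both diets, with 1863 and 2200 CPM in HFD knockouts, against 61.3, 74.0 and 97.2 CPM in SD knockouts (log2 fold change 4.71, and 4.79 in controls). The copy search covered annotated transcripts only, so matches of Lars2 elsewhere in the genome were not tested. Rn45s rose by 1.71 and by 1.73 in controls. Gm20594, a predicted gene, took 1.32% and 1.26% of counts in HFD knockouts, against 0.0004% to 0.0008% in SD knockouts.

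Transcript length and base composition moved with the diet change as well. By quintile of length, from the shortest to the longest, the median log2 fold change was 0.15, 0.10, 0.07, 0.03 and -0.14. By quintile of GC content, from the lowest to the highest, it was -0.09, -0.08, -0.02, 0.09 and 0.24. In controls the shortest and longest quintiles had medians of 0.06 and -0.08. The median over all genes was 0.03.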

How the data were processed

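RNA was extracted with Trizol and libraries were made with the Nugen Ovation RNA-Seq System V2, per the labels' protocols. The submitters' processing notes name TopHat2 2.1.0, HTSeq, DESeq2 1.14.1 and the mm9 build. The deposited files hold whole-number read counts for 24062 genes, with no lines for unassigned reads. Whether counting used strand, and what became of reads with several matches, is not given in the sources used.

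Counts were scaled by TMM and tested with edgeR 4.0.16 (quasi-likelihood test, limma 3.58.1, R 4.3.3) on 12015 genes kept by filterByExpr at a minimum count of 10. The model held 4 group means over all 12 libraries, so controls entered the estimate of the spread (common biological coefficient of variation 0.153). P-values were adjusted by Benjamini-Hochberg and called below 0.05. Standard errors were derived from the test statistic. Nothing in the labels states that the libraries come from different mice, and the p-values therefore reflect variation among libraries, which may be technical. HFD knockouts had 7463792 and 8865421 counts and SD knockouts 2371167 to 3030139, which puts 3 counts over the group at 0.186 and 0.358 CPM. Copies were searched with minimap2 2.31 among GENCODE M21 transcripts (at least 200 bases, 90% identity) for 99.2% of tested genes; 98.4% of listed symbols matched. Upstream sequences are from RefSeq.

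The members and the gene lists, written from textbook liver biology, were chosen with earlier results of these data known. Genes were named as the 10 largest rises and 10 largest falls with at least 5 CPM in the higher group and no overlap, leaving out predicted and clone names, and, per list, as the 4 genes of lowest p. A ranking of 15 rises and 15 falls with no copy found and at least 10 counts summed in each group was added after the data were seen. Alternatives were DESeq2 1.42.0, RLE scaling, no count filter, only the groups compared, thinning to 2371167 counts, length and GC offsets, a replicate block, each library left out and, added later, genes with no copy and thinning on the same genes. Replicate numbers did not pair the libraries: deviations of knockouts with the same number correlated at 0.04 and -0.01. With 1 HFD knockout left out, the other is assumed to vary like the other groups. The procedure was tested on simulated data. Some genes of the lists are not reported here.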

Additional observations from a re-analysis of the deposited data

How the results depend on the processing

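The count of 3196 diet calls in knockouts was between 2593 (thinned) and 3212 (RLE scaling) under the other tools and scalings, 2310 among genes with no copy found, and 1978 to 3249 with 1 library left out. With a replicate block it was 2927. The block is given for completeness, since whether the replicate numbers pair libraries could not be decided. At least 2-fold, 1331 genes passed, 1057 to 1387 with 1 library left out and 729 with no copy. For the difference between genotypes, DESeq2 called 30 genes, the fit with no count filter 17, the replicate block 1 and the fits with 1 library left out 0 to 4, in place of 0. Of 152 named genes that passed, 109 kept the call in every setting in which they were tested, 43 lost it in at least 1 and 0 changed direction. Named genes that had not passed changed sign in 8 cases. With 1 library left out, Cyp2a4 ran between -1.14 and 4.27, Cela1 between -0.93 and 0.30, Spp1 between -0.67 and 0.28, Sox9 between -0.40 and 0.029, and Lect2 between -0.014 and 0.56. Sox9 was at 0.19 with the block, and Slc1a2 at 0.0042 with length and GC offsets. The cause was not tested. With 2 HFD knockouts and shallow SD libraries, changes of low genes are the least certain.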

Other observations

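Lists not described above ran in both directions. Of 19 glutathione and NRF2 genes, 6 rose and 0 fell in HFD knockouts, and 2 rose without HFD knockout replicate 1; 3 rose without SD knockout replicate 2 or SD knockout replicate 3. Its median was 0.25, and 0.07 among members with no copy found. Gstm1, a glutathione transferase with 2 pseudogene copies, had 1689 and 1438 CPM in HFD knockouts, against 562, 399 and 403 CPM in SD knockouts. Gpx4, which reduces lipid peroxides and has 2 pseudogene copies, had 30.4 and 25.7 CPM in HFD knockouts, against 0.667, 0.801 and 0.697 CPM in SD knockouts. Of 18 xenobiotic P450 genes, 2 rose and 3 fell; 3 rose and 0 fell without HFD knockout replicate 2 or SD knockout replicate 1, 2 rose and 1 fell without SD knockout replicate 2, and among members with no copy found 0 rose and 1 fell. Cyp3a11, a drug-metabolizing P450 with 1 pseudogene copy, had 1738 and 847 CPM in HFD knockouts, against 4692, 2879 and 2884 CPM in SD knockouts, and its log2 fold change of -1.43 did not pass without HFD knockout replicate 2 (adjusted p = 0.2196) or SD knockout replicate 1 (adjusted p = 0.103). Of 7 nuclear or noncoding RNAs tested 3 rose and 1 fell, with a median of -0.42 that became 0.49 without SD knockout replicate 2. Neat1, a nuclear scaffold RNA, had 291 and 315 CPM in HFD knockouts, against 127, 163 and 169 CPM in SD knockouts. Gas5, a snoRNA host gene, ran the other way, with 70.0 and 96.2 CPM in HFD knockouts, against 170, 180 and 198 CPM in SD knockouts.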
